A study of Homo sapiens with 3 samples.

Results

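The miR-17, miR-18 and miR-19 families were described here in extracellular vesicles (EVs) of HepG2 cells, an established human cell line from a liver tumor. Members were chosen by name, as any listed arm of miR-17, miR-18a, miR-19a, miR-19b, miR-20a, miR-93 or miR-106b, and 11 of the 512 miR names in the deposited count table met this rule. The samples were 3 batches of wild-type HepG2 EVs of 1 condition, without a second group. The cells were kept in serum-free medium for 48 h, the vesicles were pelleted by ultracentrifugation (100000 × g, 70 min), and small RNA libraries were made from about 200 ng of RNA each. No source says if the batches were grown as separate cultures, so differences between them may be technical.

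miRs are short RNAs that guide repression of messenger RNAs, mainly through the seed, bases 2 to 8 of the mature strand. Each miR is cut from a hairpin in a longer primary transcript, and either arm of the hairpin, 5p or 3p, can become the mature strand. The miR-17-92 cluster, a well known target of MYC, encodes 6 hairpins in the noncoding transcript MIR17HG. A second cluster, with miR-106b, miR-93 and miR-25, lies in an intron of MCM7, a gene for a subunit of the replicative DNA helicase. miRs with the miR-17 seed promote cell cycle entry, with CDKN1A among their known targets. In mouse lymphoma models, miR-19 was found to carry much of the growth-promoting activity of miR-17-92.

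The mature sequences, taken from RefSeq (GRCh38.p14) for 11 of 11 members and given 5′ to 3′ with the seed in capitals, fell into 7 seeds. They are printed because the families are defined by these bases. The members miR-93-5p, miR-17-5p, miR-20a-5p and miR-106b-5p share the miR-17 seed, miR-18a-5p has the miR-18 seed, and miR-19a-3p and miR-19b-3p share the miR-19 seed. Each of the other arms has a seed that no other member shares. The prefix hsa marks human miRs and is left out after these lines.
hsa-miR-93-5p: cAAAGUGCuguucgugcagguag
hsa-miR-17-5p: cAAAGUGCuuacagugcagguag
hsa-miR-20a-5p: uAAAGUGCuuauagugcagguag
hsa-miR-106b-5p: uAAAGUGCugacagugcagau
hsa-miR-18a-5p: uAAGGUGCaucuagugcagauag
hsa-miR-19a-3p: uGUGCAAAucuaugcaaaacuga
hsa-miR-19b-3p: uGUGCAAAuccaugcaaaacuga
hsa-miR-106b-3p: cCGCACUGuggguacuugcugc
hsa-miR-93-3p: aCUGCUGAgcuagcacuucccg
hsa-miR-18a-3p: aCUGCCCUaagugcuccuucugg
hsa-miR-19b-1-5p: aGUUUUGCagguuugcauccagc
The cluster mates used for comparison, miR-92a-3p of miR-17-92 and miR-25-3p of the MCM7 cluster, share a different seed. miR-106a-5p and miR-20b-5p, which come from the X chromosome alone, have the miR-17 seed and are shown because they are close to miR-17-5p and miR-20a-5p.
hsa-miR-92a-3p: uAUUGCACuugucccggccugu
hsa-miR-25-3p: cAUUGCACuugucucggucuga
hsa-miR-106a-5p: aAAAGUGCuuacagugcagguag
hsa-miR-20b-5p: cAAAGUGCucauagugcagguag

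On GRCh38 (GENCODE 29), MIR17 lies on the plus strand at chr13:91350605-91350688, followed by MIR18A, MIR19A, MIR20A, MIR19B1 and MIR92A1, which start 146, 286, 460, 587 and 709 bases further on. All 6 hairpins lie in an exon of 2 and in an intron of 1 of the 3 annotated MIR17HG transcripts. MIR106B (chr7:100093993-100094074), MIR93 (chr7:100093768-100093847) and MIR25 (chr7:100093560-100093643) lie on the minus strand within 431 bases between their starts, in an intron of 8 of the 13 MCM7 transcripts and in an exon of none. The mature miR-19b-3p and miR-92a-3p have a further hairpin each on chromosome X, so their counts cannot be assigned to 1 transcript. The 4 rows that come from the X chromosome cluster alone, miR-106a-5p, miR-20b-5p, miR-363-3p and the precursor name mir-106a, had 0 of 27471 counts, which allows a share of up to 0.0109%. Reads of closely related miRs can be counted for each other. miR-17-5p differs from miR-106a-5p at 1 of 23 positions and from miR-20a-5p at 2, miR-19a-3p differs from miR-19b-3p at 1 of 23, and miR-93-5p differs from miR-17-5p at 4.

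The batches had 8704, 10834 and 7933 miR counts, so a miR without a count could still have a share of 0.0345% in batch 1, 0.0277% in batch 2 and 0.0378% in batch 3 (3 counts of the total). Intervals and such limits cover only the counting error of independent reads. PCR reads are not independent molecules, so the intervals and limits may be too narrow. The hepatocyte markers miR-122-5p, miR-192-5p, miR-194-5p and miR-148a-3p were counted in every batch and made up 15.8% to 16.6% of the counts. Of their 4450 counts, 3169 were of miR-148a-3p, and miR-122-5p varied 2.74-fold between the batches (adjusted p = 8.1e-16, exact multinomial test with Benjamini-Hochberg adjustment), so the even sum does not hold for each marker. The summed share of markers per batch was 0% to 0.0185% for blood cells (2 of 6 listed rows counted), 0.0185% to 0.0804% for endothelium (1 of 2), 0.0369% to 0.103% for stroma (2 of 4) and 0% to 0.0115% for muscle (1 of 3).

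The summed share of the 11 members was 1.35% ± 0.201 (SD, n = 3 batches), with 371 counts in all. Most of it came from 4 arms, in the order miR-93-5p, miR-17-5p, miR-20a-5p and miR-106b-3p, which held 129 of 137 member counts in batch 1, 135 of 140 in batch 2 and 81 of 94 in batch 3. The miR-18 and miR-19 members were at or near the limit of detection. Of the 11 names, 5 had a count in every batch, 9 had any count and 8 had at least 2 counts in sum, the level of the 205 names on the deposited list of detected miRs. Of all 512 names, 24.4% had a count in every batch, 61.7% had any count and 40% had at least 2.

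miR-93-5p, the most abundant member, had 56, 64 and 38 counts in batches 1, 2 and 3. These are shares of 0.643% (95% Wilson interval 0.496% to 0.834%), 0.591% (0.463% to 0.754%) and 0.479% (0.349% to 0.657%), and the intervals of all batches overlapped. It held 42.6% (37.7% to 47.7%) of the pooled member counts and ranked at place 24 of the 512 names by mean raw count.

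miR-17-5p, which gives the family its name, had 29, 28 and 16 counts in batches 1, 2 and 3, or 0.333%, 0.258% and 0.202%. miR-20a-5p, its cluster partner with the same seed, had 21, 25 and 17 counts, or 0.241%, 0.231% and 0.214%. miR-106b-3p, the arm of miR-106b without the miR-17 seed, had 23, 18 and 10 counts, or 0.264%, 0.166% and 0.126%. The values of these members overlapped across batches. They ranked at places 39 (miR-17-5p), 42 (miR-20a-5p) and 48 (miR-106b-3p).

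The other members were rare. miR-93-3p, the opposite arm of miR-93-5p, had 4, 1 and 3 counts in batches 1, 2 and 3. miR-106b-5p, which carries the miR-17 seed, had 2, 0 and 5 counts. miR-18a-3p had 0, 2 and 4 counts, and miR-18a-5p had 2, 2 and 0. No batch had more than 5 counts of any of these arms, so their order within a batch carried little weight. miR-19b-3p had a single count, in batch 3. miR-19a-3p and miR-19b-1-5p had none in 27471 counts, which allows a share of up to 0.0109% each.

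**Figure D1:**
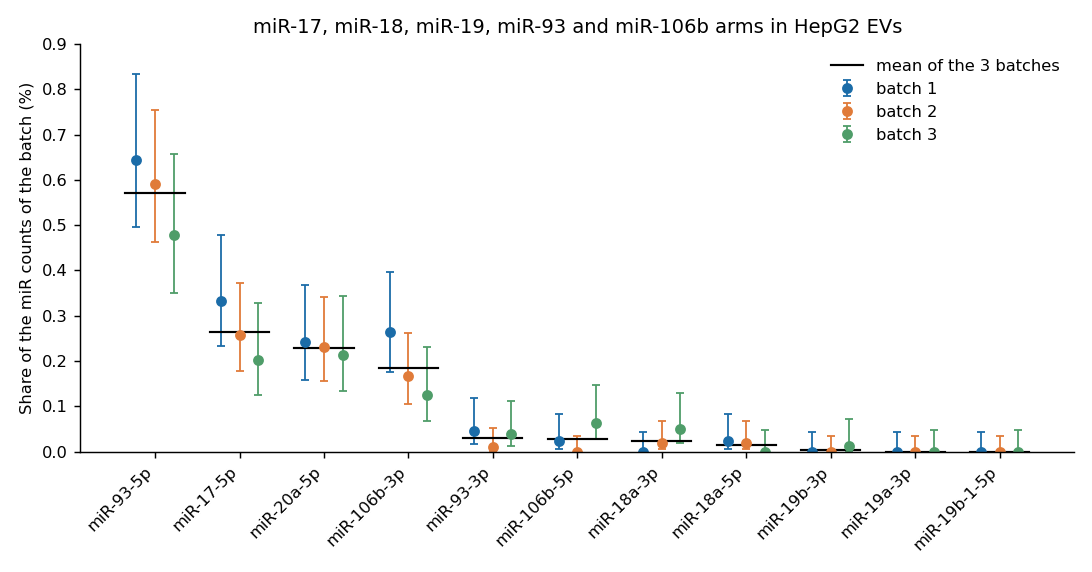
Share of the miR counts of each batch (percent, linear axis) for the 11 members in HepG2 EVs, ordered by their mean. Points are batches, bars are 95% Wilson intervals and black lines are means of the 3 batches; miR-93-5p, between 0.479% and 0.643%, stands above all other members, and the 7 names from miR-93-3p to the right have no batch above 0.0630%.

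Among neighbors in this order, miR-93-5p exceeded miR-17-5p by 0.307 percentage points (SD 0.0277, n = 3 batches) and miR-106b-3p exceeded miR-93-3p by 0.154 (SD 0.0651), both in 3 of 3 batches. miR-17-5p exceeded miR-20a-5p by 0.0357 points (SD 0.0527), and miR-20a-5p exceeded miR-106b-3p by 0.0433 (SD 0.0586), each in 2 of 3 batches, so these neighbors did not differ beyond their spread. None of the neighbors below miR-93-3p did either. An exact two-sided sign-flip test over 3 batches cannot go below p = 0.25, so no order could pass a threshold of 0.05.

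By seed, the 4 members with the miR-17 seed had a summed share of 1.09% ± 0.142 (SD, n = 3 batches), with 108, 117 and 76 counts in batches 1, 2 and 3. The miR-18a and miR-19 members, 5 names with both arms of miR-18a, had 2, 4 and 5 counts in these batches, or 0.0410% ± 0.0203. The lowest summed share of the miR-17 seed in any batch, 0.958%, was above the highest of the miR-18a and miR-19 members, 0.0630%. By base composition, the 4 leading members had 39.1% to 63.6% G and C, miR-19a-3p had 34.8% and miR-19b-3p 39.1%, the same as miR-20a-5p. The other rare members lay within the range of the leading members: miR-18a-5p had 43.5%, miR-18a-3p 56.5%, miR-19b-1-5p 47.8%, miR-106b-5p 42.9% and miR-93-3p 59.1%. Adapters are ligated with unequal efficiency to different sequences, so shares of counts need not equal those of molecules, and the part of ligation in these levels was not tested.

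Levels along the MIR17HG transcript were uneven. From the first hairpin to the last, the pooled counts of the listed arms were 73 for miR-17-5p, 4 for miR-18a-5p and 6 for miR-18a-3p, 0 for miR-19a-3p, 63 for miR-20a-5p, 0 for miR-19b-1-5p and 1 for miR-19b-3p, and 2 for miR-92a-1-5p and 639 for miR-92a-3p of the miR-25 and miR-92 seed family. The log2 ratio of counts of miR-17-5p to miR-92a-3p was -3.19, -2.94 and -3.22 in batches 1, 2 and 3, with a mean of -3.11 ± 0.15 (SD), so miR-92a-3p had 8.66-fold more counts. That of miR-20a-5p to miR-92a-3p was -3.64, -3.10 and -3.13, with a mean of -3.29 ± 0.30. Both ratios were below 0 in 3 of 3 batches (exact sign-flip p = 0.25 each, the smallest possible, with 9 pairs compared). The members held 52 of 322 counts of the listed miR-17-92 arms in batch 1, 57 of 275 in batch 2 and 38 of 191 in batch 3, or 16.1% (95% Wilson interval 12.5% to 20.6%), 20.7% (16.4% to 25.9%) and 19.9% (14.9% to 26.1%). These shares overlapped. Any miR-92a-3p made from chromosome X is included in these totals.

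miR-17-5p and miR-20a-5p, which share the seed and the transcript, were near equal, with a log2 ratio of 0.46, 0.16 and -0.08 in batches 1, 2 and 3. miR-17-5p made up 53.7% (95% Wilson interval 45.3% to 61.8%) of their 136 pooled counts. How the counting treated reads that fit both is not given in the sources used here. Against miR-18a-5p, which is cut from the next hairpin, miR-17-5p had 73 counts to 4.

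**Figure D2:**
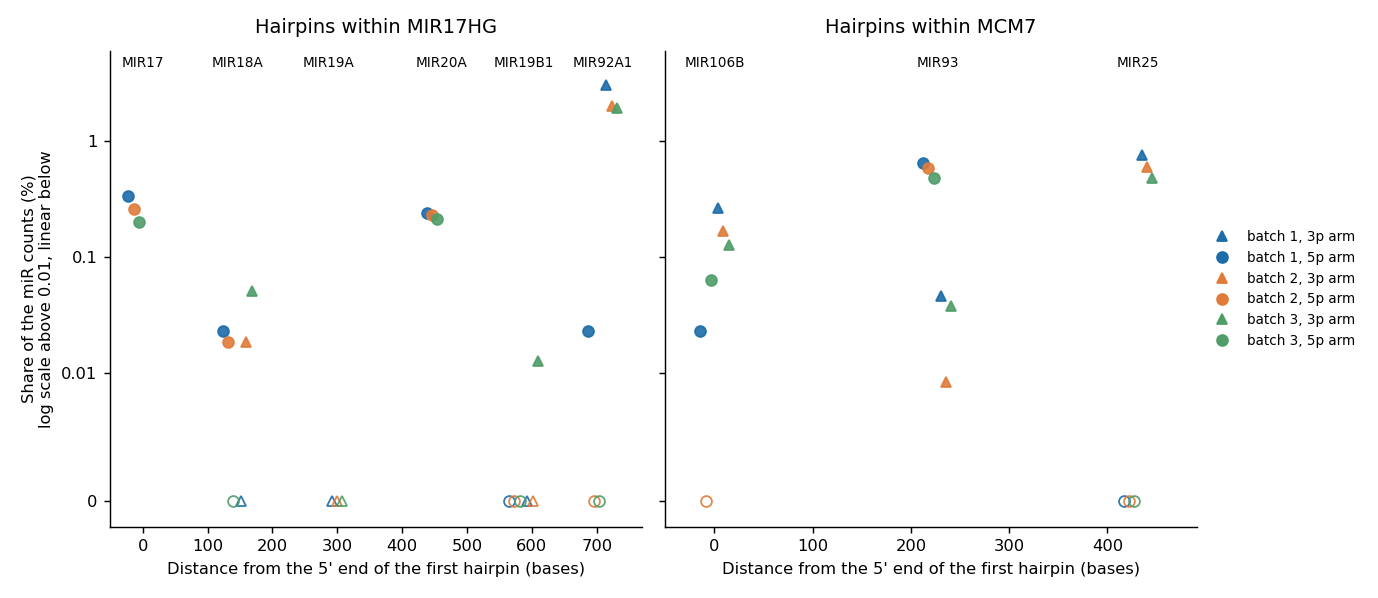
Share of the miR counts (percent, log scale above 0.01 and linear below) of each arm listed in the table, against the distance in bases from the 5′ end of the first hairpin, for MIR17HG (left) and MCM7 (right). Circles are 5p arms, triangles 3p arms, colors are batches, points are shifted sideways to keep them apart and open symbols mark counts of 0; miR-92a-3p, between 1.93% and 3.08%, is the highest in MIR17HG, and miR-93-5p and miR-25-3p lie close together in MCM7.

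Among the members, those of the MCM7 cluster outnumbered those of miR-17-92, while over all listed arms, with miR-25 and miR-92a included, the MCM7 cluster had 393 counts and miR-17-92 had 788. miR-93 and miR-106b arms held 224 of the 371 pooled member counts, 60.4% (95% Wilson interval 55.3% to 65.2%). miR-93-5p had 56, 64 and 38 counts against 66, 65 and 38 of miR-25-3p, so the pair tied in batch 3. Their log2 ratio was -0.09 ± 0.13 (SD, n = 3 batches), a difference within the spread. miR-106b-3p was below miR-25-3p, with a log2 ratio of -1.73 ± 0.20, and miR-93-5p was above miR-106b-3p by 1.65 ± 0.33, each in 3 of 3 batches. Across the 2 transcripts, miR-93-5p exceeded miR-17-5p, which has the same seed, by 1.11 ± 0.15 on the log2 scale, in 3 of 3 batches.

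The arms of miR-106b and miR-93 had unequal counts, with more 3p counts for miR-106b and more 5p counts for miR-93. The MIR106B hairpin, minus strand, is shown with its mature arms in capitals, the 5p arm first, because its counts lay mostly on the arm without the miR-17 seed.
MIR106B: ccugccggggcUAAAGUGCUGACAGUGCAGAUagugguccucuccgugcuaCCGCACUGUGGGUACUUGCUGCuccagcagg
miR-106b-5p had 2, 0 and 5 counts, against 23, 18 and 10 of miR-106b-3p. The 5p arm thus made up 8.0% (95% Wilson interval 2.22% to 25%) of 25 counts in batch 1, 0 of 18 in batch 2, which allows up to 16.7%, and 33.3% (15.2% to 58.3%) of 15 in batch 3. The 3p arm was higher in 3 of 3 batches, and the 5p arm over the 3p arm gave a log2 ratio of -3.13 ± 2.14 (SD, n = 3, with 0.5 added to both arms). This mean was -2.08 without replicate 2 and -4.22 without replicate 3, so its size rested on single batches while its sign did not. For miR-93 the 5p arm was higher in 3 of 3 batches, with 158 counts to 8 and a log2 ratio of 4.18 ± 1.08, or 3.55 without replicate 2. The arms of miR-18a had 4 counts to 6, too few to rank. Of the 58 precursors with both arms listed and at least 10 counts, 48.3% had more 3p than 5p counts in every batch. miR-106b-5p supplied 7 of the 301 counts with the miR-17 seed, or 2.33% (1.13% to 4.72%) of the pooled counts, with 1.85%, 0% and 6.58% in batches 1, 2 and 3. Its mean share of the miR counts was 0.0287%, and 0.0115% without replicate 3.

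The arm ratio of miR-106b varied between the batches, but not beyond the threshold. An exact test with fixed margins over 58 precursors gave it an adjusted p of 0.180 (unadjusted p = 0.0124), and 0.430 for miR-18a and 1.00 for miR-93. The same test called 3 precursors, 5.17% of those tested, which were miR-148a, miR-423 and miR-483, named after their values were seen.

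**Figure D3:**
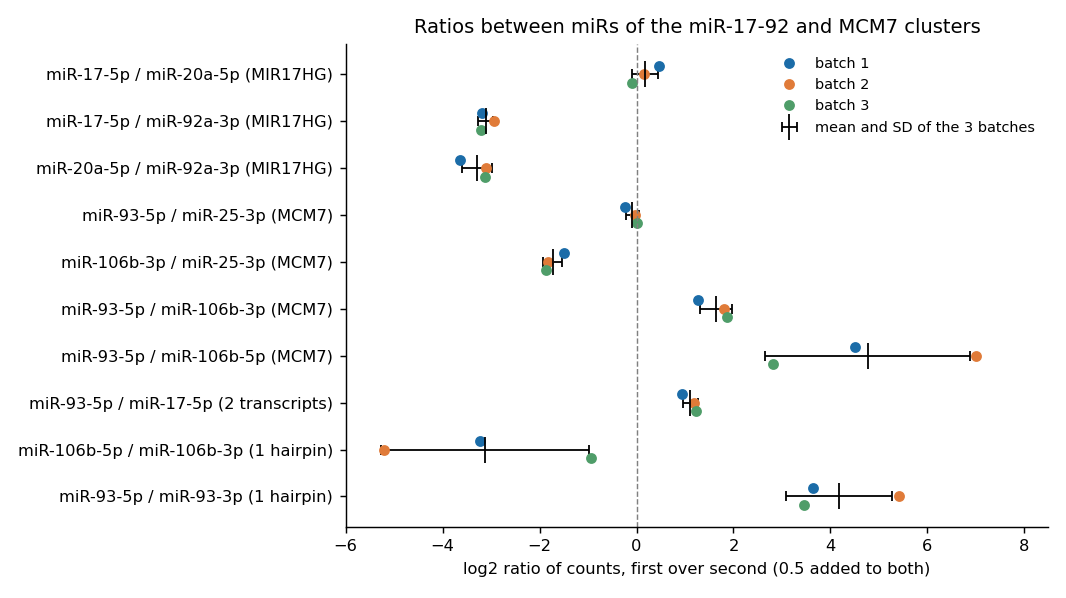
Log2 ratio of counts, first miR over second with 0.5 added to both, for pairs from MIR17HG, MCM7, both transcripts or 1 hairpin, without the pairs of miR-18a-5p (0 to 2 counts per batch). Points are batches, and the bar and whiskers are their mean and SD; miR-93-5p over miR-25-3p lies at -0.09 ± 0.13, and both ratios with miR-106b-5p have SDs above 2 on the log2 scale.

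Differences between batches were tested for the 64 miRs with at least 30 counts in sum, with the counting noise of 1 library per batch as the only error. miR-93-5p, miR-17-5p, miR-20a-5p and miR-106b-3p entered this test, with 158, 73, 63 and 51 counts, and the next member, miR-93-3p, had 8. None of the 4 differed in share between the batches in the exact multinomial test with Benjamini-Hochberg adjustment over 64 miRs. The adjusted p was 0.485 for miR-93-5p, 0.408 for miR-17-5p, 0.938 for miR-20a-5p and 0.206 for miR-106b-3p. The unadjusted p was below 0.05 for 0 of the 4 members. Over all 64 miRs, 25, or 39.1%, were called and 28 had an unadjusted p below 0.05. The highest share exceeded the lowest 1.34-fold for miR-93-5p, 1.65-fold for miR-17-5p, 1.13-fold for miR-20a-5p and 2.10-fold for miR-106b-3p. The median was 1.5-fold for the 4 members and 1.58-fold for the 64 miRs. It was 2.16-fold for the 25 called, but the test had picked these for unequal shares. At this depth the differences of the members stayed within counting error, which does not show their shares to be equal.

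**Figure D4:**
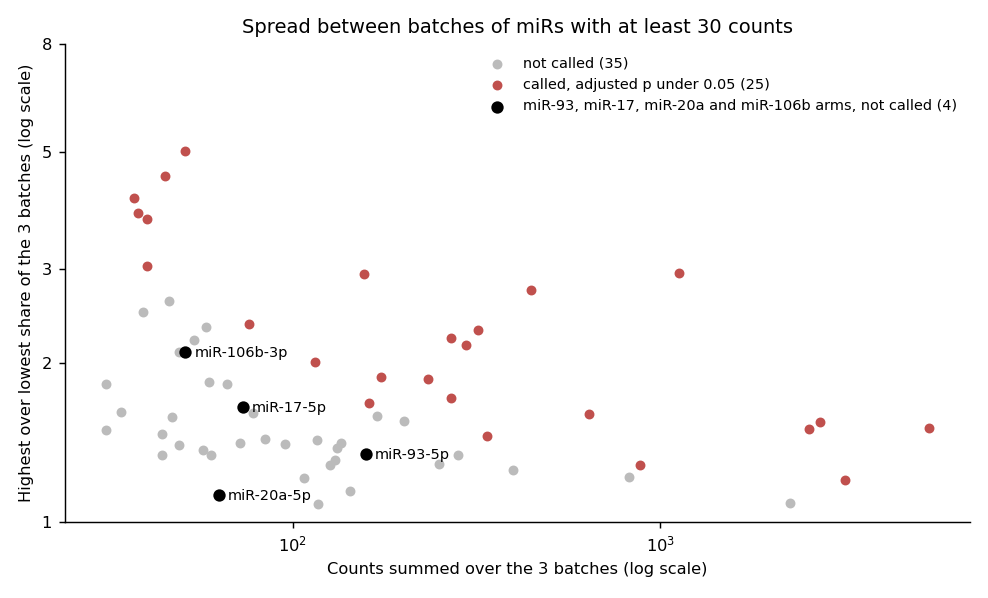
Highest over lowest share among the 3 batches (log scale) against the counts summed over the batches (log scale) for the 64 miRs with at least 30 counts. Red points were called in the exact multinomial test and black points are the 4 members tested; miR-106b-3p, at 2.10-fold with 51 counts, lies among miRs that were not called.

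The 4 tested members had their highest share in batch 1 and their lowest in batch 3 with the deposited totals, but this order depended on the scaling. With the deposited totals 67.2% of the 64 miRs were highest in batch 1. With TMM-scaled totals, 1 of the 4 members (miR-106b-3p) was highest in batch 1 and 3 in batch 2, and the split was the same by DESeq2 size factors or when the 5 leading miRs were taken out of the totals. Among called miRs, 19 of 25 (29.7% of the 64 tested) were highest in batch 1 with deposited totals, 8 of 22 with TMM, 8 of 22 with DESeq2 size factors and 5 of 15 without the 5 most abundant. The calls themselves also changed. Of the 25 miRs called with deposited totals, 15 were called with TMM and 15 with DESeq2 size factors. Without the 5 most abundant in the totals, where 59 miRs were tested, 9 of them were called. The 5 left out of that test included miR-191-5p, miR-320a, miR-423-5p and miR-148a-3p, which were among the 25 and so could not be called. The summed member share was 1.57%, 1.29% and 1.18% in batches 1, 2 and 3 with deposited totals, and 1.28%, 1.44% and 1.30% with TMM.

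miR-92a-3p has a hairpin in the transcript of miR-17-5p and miR-20a-5p and a further hairpin on chromosome X. It was called between batches, with 3.08%, 2.01% and 1.93% in batches 1, 2 and 3 (adjusted p = 2.8e-06, exact multinomial test). The call was lost with TMM (adjusted p = 0.371), with DESeq2 size factors (0.246), without the 5 leading miRs in the totals (0.751) and without replicate 1 (0.912). Whether miR-92a-3p varied more than miR-17-5p and miR-20a-5p between the batches was not tested, and their log2 ratios above had SDs of 0.15 and 0.30.

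The miRs whose 3 shares were most like those of the summed members were miR-941, miR-23b-3p, miR-423-3p, miR-224-5p and miR-330-3p. Likeness was taken as 0.5 times the sum of absolute differences between the batch profiles, each profile being the 3 shares divided by their sum, among 60 other miRs with at least 30 counts. The distance was 0.00556 for miR-941, 0.00822 for miR-23b-3p, 0.00883 for miR-423-3p, 0.00964 for miR-224-5p and 0.0210 for miR-330-3p, on a scale where 0 is an identical profile. For miR-941, the profile was 38.6%, 32.5% and 28.9% in batches 1, 2 and 3, against 38.9%, 31.9% and 29.2% of the summed members. These profiles rest on 3 libraries and share the deposited totals, and miR-941 and miR-23b-3p had only 60 and 57 counts. Of the 5 nearest miRs, miR-423-3p alone was called between batches (adjusted p = 0.0343, exact multinomial test).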

How the data were processed

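Small RNA of 3 batches of HepG2 EVs was sequenced by the authors on an Illumina MiniSeq from NEBNext libraries, with quality control by miRTrace, and raw counts per miR and batch were deposited without normalization. A column of other values in the deposited tables holds the authors' mean of the 3 counts and was not used. The submitters' processing notes name GRCh38, and an aligner and a counter were not given in the sources used here. A second deposited table repeats the counts of 205 names, equal in 205 of 205 rows.

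Shares of the batch total, Wilson intervals, log2 ratios with 0.5 added to both counts, an exact multinomial test between batches (at least 30 counts in sum) and an exact test of arm ratios (at least 10 counts over both arms) were computed, both with Benjamini-Hochberg adjustment over all miRs or precursors tested and a threshold of 0.05. With 1 condition there was no contrast for a model of groups. The p-values of both exact tests set 3 libraries against counting noise only, without an estimate of the spread between libraries. The named miRs were all members, their cluster mates, rows with a member's seed and the 5 miRs nearest in batch profile. Members and lists were chosen with earlier results of these data known. Alternatives were the scaling (TMM of edgeR, DESeq2 size factors, totals without the 5 most abundant miRs), count minimums, the pseudocount, pooling and each batch left out. Totals ran from 7933 to 10834 counts. Scaling factors came from DESeq2 1.42.0 and edgeR 4.0.16 under R 4.3.3. Tests and plots were made with scipy 1.17.1, matplotlib 3.10.9, numpy 2.4.6 and pandas 2.3.3 under Python 3.11.15.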

Additional observations from a re-analysis of the deposited data

How the results depend on the processing

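No paired analysis was possible because there was only 1 group of samples. Of 144 alternatives for shares and log2 ratios, 132 moved the value by less than 1 SD, which for left-out batches is fixed by the arithmetic. The other 12 were shares of totals without the 5 most abundant miRs, a smaller denominator, where the summed member share was 3.26% in place of 1.35%. The members present numbered 8 with at least 2 counts in sum, 5 with a count in every batch, 4 with 10 counts in sum and 4 with 10 in every batch. No alternative called a tested member between batches (lowest adjusted p 0.118, exact multinomial test, in 35 comparisons). All miRs called numbered 25, with 15 of 59 tested for totals without the 5 most abundant and from 4 (without replicate 1) to 18 without 1 batch. Called arm ratios numbered 3, and from 0 (without replicate 1) to 3 without 1 batch. The cause of these changes was not tested. At this depth, little could be said of the 7 members with at most 8 counts.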
